A study of Mus musculus with 27 samples.

Results

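The 8 genes described here encode the nuclear subunits of mouse cytochrome c oxidase that exist in tissue-specific or condition-specific versions: Cox4i1 and Cox4i2, Cox6a1 and Cox6a2, Cox7a1 and Cox7a2, Cox8a and Cox8b. They were chosen by name, and with their levels in these data known, from the 24025 genes of the bulk RNA table, and all 8 were also found among the 19010 genes of the single-cell table. Cox6a2, Cox7a1 and Cox8b are the 3 muscle-type (heart) isoforms, and Cox6a1, Cox7a2 and Cox8a are their general partners. Cox4i1 is the general form of subunit 4, and Cox4i2 is its alternative form, known from lung and from hypoxia rather than from muscle.

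The samples came from C57BL/6 mice carrying deletions of Hand2as (Hand2os1), a long noncoding RNA gene transcribed in the opposite direction to Hand2, a transcription factor of the developing heart. The F allele removes the full length of Hand2as and the D allele its 3' distal part. Bulk poly(A) RNA was measured in whole hearts at E11.5 (3 F/+ and 3 F/F), in ventricles at E16.5 (3 F/+ and 3 F/F), and in cardiomyocytes at 8 weeks (5 +/+, 2 D/+ and 6 D/D), which makes 25 libraries. Single cells came from E11.5 hearts of +/+ and F/F embryos of heterozygous intercrosses, with 6 hearts pooled into 1 library per genotype after trypsin treatment and sorting of living cells, so the single-cell data have no replicate. The embryonic bulk controls thus carry 1 F allele, the single-cell control carries none, and the 8-week controls are +/+ and D/+. The labels do not say whether bulk replicates are single animals or pools, so the tests below measure the spread between these libraries.

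Cytochrome c oxidase is the last enzyme of the mitochondrial respiratory chain: it passes electrons from cytochrome c to oxygen and pumps protons. Its catalytic core is encoded by mitochondrial DNA, and the nuclear subunits surround that core and tune its activity, its stability and its pairing with other complexes. In mammalian heart and skeletal muscle, the muscle-type versions of subunits 6A, 7A and 8 replace the general versions as the muscle matures.

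Promoter sequence is shown first because the muscle-type genes and their general partners, which follow different courses across stages, also differ in how many CpG dinucleotides lie just upstream of their start. The RefSeq promoter table (GRCm38.p6) held 5 of the 8 genes, Cox6a1, Cox7a1, Cox7a2, Cox8a and Cox8b. Each line gives the 250 bases before the RefSeq gene's start, 5′ to 3′ on the gene's strand, in lower case with every CpG in capitals.
Cox8b: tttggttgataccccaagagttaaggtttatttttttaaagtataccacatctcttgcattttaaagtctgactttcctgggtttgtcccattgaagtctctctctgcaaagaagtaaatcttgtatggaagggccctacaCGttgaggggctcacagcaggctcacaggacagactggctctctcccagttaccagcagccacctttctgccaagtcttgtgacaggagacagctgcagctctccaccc
Cox8a: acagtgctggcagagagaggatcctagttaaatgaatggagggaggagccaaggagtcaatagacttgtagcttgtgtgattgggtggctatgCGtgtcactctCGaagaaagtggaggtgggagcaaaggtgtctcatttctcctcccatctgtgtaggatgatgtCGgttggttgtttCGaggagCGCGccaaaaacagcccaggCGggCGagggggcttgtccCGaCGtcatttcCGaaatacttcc
Cox7a1: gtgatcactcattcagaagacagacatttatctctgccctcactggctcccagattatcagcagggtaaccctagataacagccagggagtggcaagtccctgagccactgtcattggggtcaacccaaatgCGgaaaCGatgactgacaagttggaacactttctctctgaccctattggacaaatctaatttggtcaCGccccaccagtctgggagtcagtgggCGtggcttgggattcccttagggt
Cox7a2: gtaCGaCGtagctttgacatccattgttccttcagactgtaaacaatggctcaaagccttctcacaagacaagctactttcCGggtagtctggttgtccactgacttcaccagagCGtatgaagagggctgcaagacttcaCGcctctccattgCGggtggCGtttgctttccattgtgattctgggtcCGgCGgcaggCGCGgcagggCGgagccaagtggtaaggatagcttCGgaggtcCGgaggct
Cox6a1: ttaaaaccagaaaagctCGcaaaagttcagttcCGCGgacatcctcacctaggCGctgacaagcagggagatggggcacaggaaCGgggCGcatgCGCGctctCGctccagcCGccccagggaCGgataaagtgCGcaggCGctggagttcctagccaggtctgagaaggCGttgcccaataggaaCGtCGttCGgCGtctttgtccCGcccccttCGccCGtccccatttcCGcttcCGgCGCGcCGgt
These windows lie at chr7:140900447-140900696 (minus strand) for Cox8b, chr19:7217617-7217866 (minus strand) for Cox8a, chr7:30183921-30184170 (plus strand) for Cox7a1, chr9:79759854-79760103 (minus strand) for Cox7a2 and chr5:115348959-115349208 (minus strand) for Cox6a1. The GENCODE starts given below differ from the RefSeq ones for Cox6a1, Cox7a1 and Cox7a2, whose windows run a little way into the GENCODE gene.

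The Cox8b window holds 1 CpG and the Cox7a1 window 4, against 11 for Cox8a, 14 for Cox7a2 and 26 for Cox6a1. Over all 32851 windows of this length the median was 6 CpG. A count no higher than that of Cox8b was found in 18.8% of windows, and a count no lower than that of Cox6a1 in 9.6%. The other windows were nearer the middle, with 44.4% of windows holding no more CpG than Cox7a1, 35.6% no fewer than Cox8a and 29.4% no fewer than Cox7a2. The muscle-type genes thus stood on the low side of the median and the general genes on the high side, in the 5 windows that could be read. The GC content was 47.2% for Cox8b, 51.2% for Cox7a1, 52.8% for Cox8a, 54.8% for Cox7a2 and 62.8% for Cox6a1, with a median of 52.4% over all windows.

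A search of both strands for 7 motifs gave few matches, which are descriptions of letters and not sites. The E-box CANNTG, bound by basic helix-loop-helix factors such as HAND2, occurred once each in the windows of Cox8b (19 bases before the start), Cox7a2 (35), Cox8a (102) and Cox7a1 (124), and it occurs in 66.2% of all windows. The Cox6a1 window held 2 matches to the NRF1 motif, which 3.7% of windows hold, 1 match to the ETS motif CCGGAAG (6.9% of windows) and 2 to the GC box GGGCGG (32.7%). The Cox7a2 window also held 1 GC box. No match was found in any of the 5 windows for the TATA motif TATAAA (12.4% of all windows), the MEF2 motif (3.2%) or the estrogen-related receptor motif AAGGTCA (4.1%).

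In the GENCODE vM21 annotation of GRCm38, the muscle-type genes are short: Cox6a2 lies on chromosome 7 from 128205435 to 128206387 (minus strand), Cox7a1 on chromosome 7 from 30184144 to 30186078 (plus strand) and Cox8b on chromosome 7 from 140898945 to 140900446 (minus strand). All 3 are thus on 1 chromosome, at distant places. Their general partners lie elsewhere, Cox6a1 on chromosome 5, Cox7a2 on chromosome 9 and Cox8a on chromosome 19, with Cox4i1 on chromosome 8 and Cox4i2 on chromosome 2. The bulk table has 1 value per gene and library in FPKM (fragments scaled by gene length and library size, a unit inferred here from the values), so levels can be compared between genes. Of the 8, only Cox6a1 has a near copy among other annotated genes (at least 90% identity over at least 80% of its transcript), so its reads could be split and its FPKM is uncertain.

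Some libraries stood apart, and these facts bear on what follows. The targeted gene is listed as LOC102636514: it was at 0 FPKM in all 6 E11.5 libraries, so the labels could not be checked there, at 0.37 to 1.4 FPKM in F/+ and 0 in F/F at E16.5, and at 6.9 to 13.48 FPKM in 4 of the 5 +/+ libraries at 8 weeks. The library labelled +/+ replicate 5 had 0 FPKM, against its label, and the D/D libraries ranged from 0 to 2.67 FPKM. On the first principal component of the 8-week libraries (44.6% of the variance) this library and D/D replicate 6 lay apart from the other 11. The 11 cardiomyocyte markers, of which Tnni1 was near 0 at 8 weeks (0 to 1.19 FPKM), had a summed level of 12372 to 17145 FPKM at E11.5 and 29994 FPKM or more at 8 weeks, while summed erythroid markers reached 39049 FPKM or more at E11.5 and at most 146 FPKM at 8 weeks. Skeletal muscle markers summed to 36.6 to 54.2 FPKM at E11.5, 3.35 to 6.73 FPKM at E16.5 and at most 2.03 FPKM at 8 weeks. Of 6 fat cell markers, Ucp1, Elovl3, Adipoq and Plin1 were each under 1 FPKM at 8 weeks. That list summed to 23.7 to 48.6 FPKM at 8 weeks, mostly from Cidea (23.6 to 45.3 FPKM). Gapdh, with near copies in 9 other genes, was at most 5.09 FPKM in embryonic and at least 981 FPKM in 8-week libraries. Most of the ribosomal protein genes checked beside it did not share this gap. Of 47 whose median reached 10 FPKM, 8 stood lower in embryos than at 8 weeks without overlap. In 6 of the 47, the embryonic median lay more than 10 times below that of 8 weeks. At E11.5 the median of Gapdh was 1.18 FPKM, while the single cells of that stage had 2392 CPM, a scale explained below. Whether counting or the samples differ for Gapdh and the ribosomal protein genes that were lower in embryos was not tested. Cox6a1 is the member with a near copy, but its FPKM was lower at 8 weeks than in embryos.

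The muscle-type isoforms were higher at each later stage, and their general partners followed other courses. Since the genes were chosen for this course, it is a description and carries no test. The stages also differ in tissue (whole heart, ventricle, isolated cardiomyocytes), and in bulk RNA a change in the number of myocytes cannot be told apart from a change per cell.

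Cox6a2, the heart form of subunit 6A, lies at the dimer interface of the enzyme. It ran from 358 to 574 FPKM at E11.5 (median 485, 6 libraries), from 2146 to 3154 FPKM at E16.5 (median 2622, 6 libraries) and from 6249 to 17039 FPKM at 8 weeks (median 8929, 13 libraries). The 3 stages did not overlap, and the highest 8-week value was that of +/+ replicate 5. The median was 5.41 times higher at E16.5 than at E11.5 and 3.41 times higher at 8 weeks than at E16.5.

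Cox7a1, the heart form of subunit 7A, ran from 58.4 to 167 FPKM at E11.5 (median 82.4), from 192 to 332 FPKM at E16.5 (median 250.2) and from 2562 to 4603 FPKM at 8 weeks (median 2890.3). Its stages did not overlap either. Most of its rise came late: the median was 3.04 times higher at E16.5 than at E11.5, and 11.6 times higher at 8 weeks than at E16.5.

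Cox8b, the heart form of the small subunit 8, had the lowest level of the 3 at E11.5 and the steepest course. It ran from 33.8 to 74.1 FPKM at E11.5 (median 54.7), from 409 to 476 FPKM at E16.5 (median 457) and from 3721 to 5017 FPKM at 8 weeks (median 4265). The median was 8.36 times higher at E16.5 than at E11.5 and 9.32 times higher at 8 weeks than at E16.5, in all 78.0 times. Over the same span Cox7a1 was 35.1 times and Cox6a2 18.4 times higher.

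The general partners followed different courses from each other. Cox6a1 had medians of 981 FPKM at E11.5 (819 to 1029), 1295 FPKM at E16.5 (1186 to 1397) and 254 FPKM at 8 weeks (162 to 402), so it was 5.11 times lower at 8 weeks than at E16.5. Cox8a had medians of 923 FPKM at E11.5 (744 to 1214), 1043 FPKM at E16.5 (1018 to 1107) and 519 FPKM at 8 weeks (464 to 682), which is 2.01 times lower at 8 weeks than at E16.5. For both genes every 8-week library was below every E11.5 and E16.5 library. Cox4i1, which has no muscle-type competitor, had medians of 611, 967 and 1584 FPKM at the 3 stages and was 2.6 times higher at 8 weeks than at E11.5, with no overlap between stages.

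Cox7a2 did not follow the other general genes. It ran from 30.9 to 162 FPKM at E11.5 (median 75.8) and from 2.75 to 5.37 FPKM at E16.5 (median 3.94), so the median was 19.3 times lower at E16.5. At 8 weeks the median was 384 FPKM, with 11 libraries between 351 and 436 FPKM, 91.1 FPKM in D/D replicate 6 and 14.3 FPKM in +/+ replicate 5, the libraries that stood apart on the first principal component. Of the other subunits, Cox6b2, Cox6c, Cox7b and Ndufa4 were also lower at E16.5 than at E11.5 without overlap, and Cox6c, Cox7b and Ndufa4 were higher again at 8 weeks. Ndufa4 was at 263 to 412 FPKM at E11.5, 15.5 to 24.1 FPKM at E16.5 and 107 to 2793 FPKM at 8 weeks, with its lowest 8-week values in +/+ replicate 5 and D/D replicate 6 (106.8 and 798.8 FPKM). Cox7b was at 83.8 to 152 FPKM at E11.5, 2.62 to 8.74 FPKM at E16.5 and 142.9 to 418 FPKM at 8 weeks, with its lowest 8-week values in the same libraries (142.9 and 147.3 FPKM). Cox6c was at 263 to 422 FPKM at E11.5, 50.5 to 101 FPKM at E16.5 and 601 to 1352 FPKM at 8 weeks. What makes Cox7a2, Cox7b and Ndufa4 low at E16.5 and in those libraries was not tested.

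Cox4i2 was low throughout and had no stage course. It ran from 8.24 to 38.5 FPKM at E11.5 (median 17.0), from 15.9 to 24.5 FPKM at E16.5 (median 18.2) and from 7.67 to 37.1 FPKM at 8 weeks (median 14), and the 3 stages overlapped.

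For scale, among 11437 genes whose mean reached 1 FPKM, 15.8% were higher in every E16.5 library than in every E11.5 library, and 25.7% were lower. For 8 weeks against E16.5 the shares were 15.7% higher and 35.9% lower, and for 8 weeks against E11.5 they were 12.8% and 36.4%. A rise by over 2 on the log2 scale without overlap was seen for 1.62% of genes from E11.5 to E16.5, 5.71% from E16.5 to 8 weeks and 6.08% from E11.5 to 8 weeks, and for Cox6a2 and Cox8b, Cox7a1, Cox7a2 and Cox8b, and Cox6a2, Cox7a1 and Cox8b respectively. Among the 8 members, 5 were higher at E16.5 than at E11.5 without overlap (Cox4i1, Cox6a1, Cox6a2, Cox7a1 and Cox8b) and 1 was lower (Cox7a2). From E16.5 to 8 weeks 5 were higher (Cox4i1, Cox6a2, Cox7a1, Cox7a2 and Cox8b) and 2 lower (Cox6a1 and Cox8a). These counts are those the choice of genes fixed, and nothing is read from them. Together the 8 genes made up 0.60% to 0.79% of all FPKM at E11.5, 1.84% to 2.06% at E16.5 and 3.76% to 5.99% at 8 weeks.

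The order of levels within a stage also changed. At E11.5 the order by median FPKM was Cox6a1, Cox8a, Cox4i1, Cox6a2, Cox7a1, Cox7a2, Cox8b and Cox4i2, where Cox6a1 and Cox8a overlapped, Cox4i1 and Cox6a2 overlapped, and so did each neighbouring pair from Cox7a1 down. At E16.5 Cox6a2 stood first, followed by Cox6a1, Cox8a, Cox4i1, Cox8b, Cox7a1, Cox4i2 and Cox7a2. There Cox4i1 overlapped Cox8a and Cox6a1, and no other neighbours overlapped. At 8 weeks the muscle-type genes took the first places in the order Cox6a2, Cox8b and Cox7a1, followed by Cox4i1, Cox8a, Cox7a2, Cox6a1 and Cox4i2. There Cox8b overlapped Cox7a1 only through +/+ replicate 5 (4603 FPKM of Cox7a1), and Cox7a2 overlapped Cox6a1 only through the values of that library and D/D replicate 6.

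**Figure D1:**
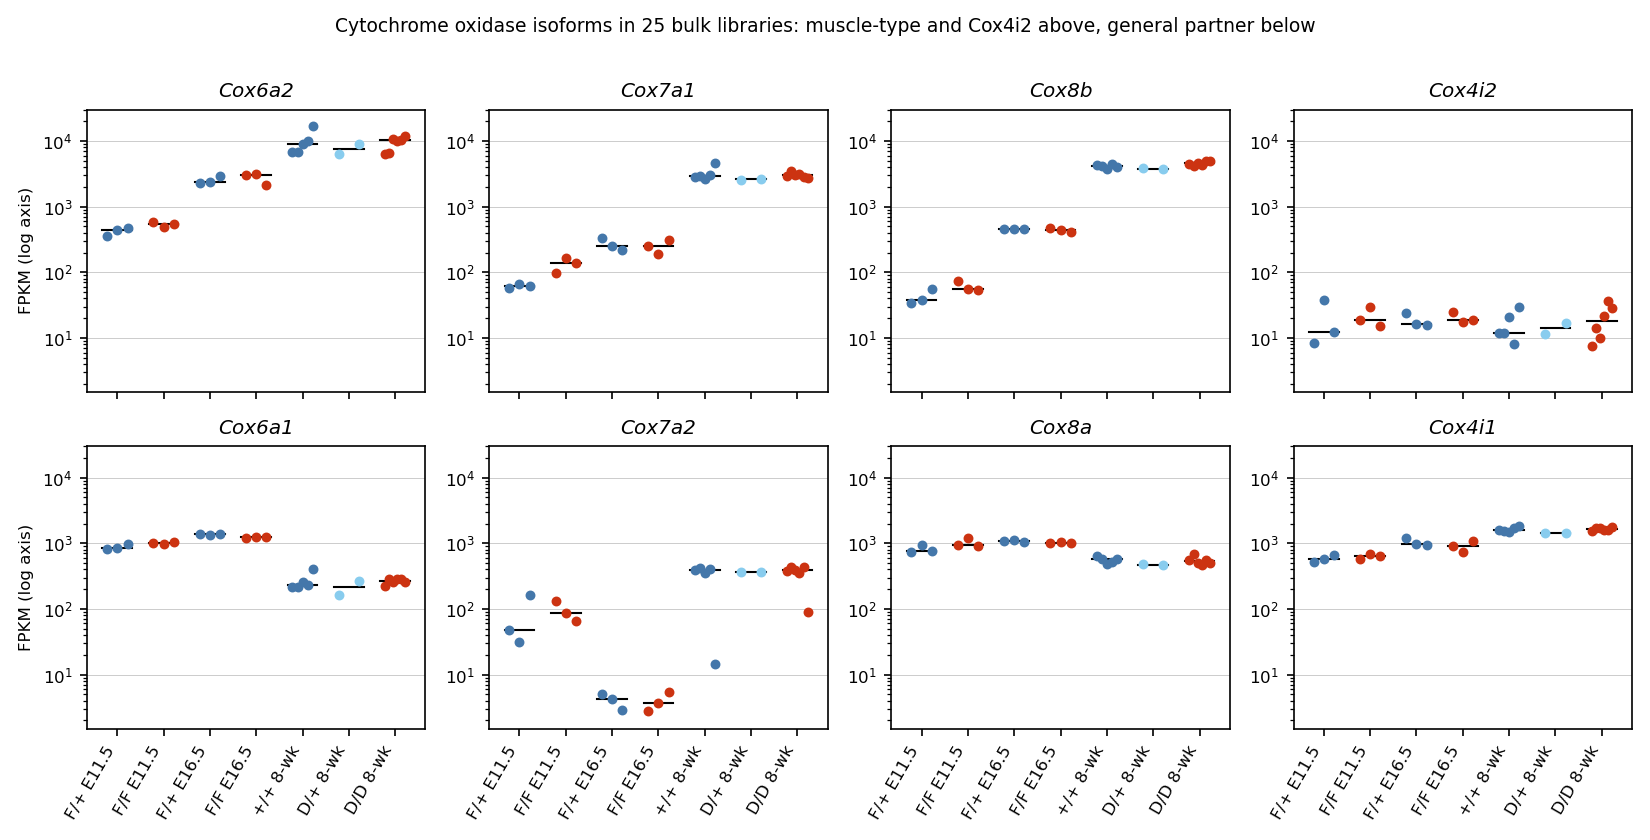
FPKM of each isoform in every bulk library (points; log axis) by genotype and stage, with the group median as a bar; the upper row holds the muscle-type genes and Cox4i2, the lower row their general partners. Cox6a2, Cox7a1 and Cox8b climb from stage to stage, Cox6a1 and Cox8a are lowest at 8 weeks, Cox7a2 dips to 2.75 to 5.37 FPKM at E16.5, and Cox4i2 stays between 7.67 and 38.5 FPKM.

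Within a pair, the share of the muscle-type isoform sets both partners beside each other in the same library, on the same per-length scale. It is not a direct reading of a switch, because the tissue differs between stages and the FPKM of Cox6a1 is uncertain. For the Cox7a pair, the E11.5 share also differs between bulk and single cells, as given below. Cox6a2 made up 30.4% to 35.8% of Cox6a1 plus Cox6a2 at E11.5 (median 33.6%), 62.2% to 72.1% at E16.5 (65.8%) and 95.9% to 97.9% at 8 weeks (97.2%). In log2 terms the ratio of Cox6a2 to Cox6a1 was -0.99 ± 0.12 (SD, n = 6), 1.02 ± 0.30 (SD, n = 6) and 5.14 ± 0.28 (SD, n = 13). The 3 ranges did not overlap, and Cox6a2 was the more abundant form in all 6 ventricles but in none of the 6 E11.5 hearts.

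Cox8b was still the minor form at E16.5. It made up 3.84% to 7.28% of its pair at E11.5 (median 4.96%), 28.7% to 31.7% at E16.5 (29.8%) and 85.9% to 90.8% at 8 weeks (89.0%), with log2 ratios of -4.16 ± 0.39 (SD, n = 6), -1.22 ± 0.07 (SD, n = 6) and 2.998 ± 0.20 (SD, n = 13). At E16.5 Cox8a was still the more abundant form in all 6 ventricles.

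The Cox7a pair gave the least stable ratio, through Cox7a2. Cox7a1 made up 27.5% to 68.2% of the pair at E11.5 (median 60.3%), 98.1% to 98.9% at E16.5 (98.4%) and 87.0% to 99.7% at 8 weeks (88.3%). The log2 ratio was 0.25 ± 0.99 (SD, n = 6), 5.71 ± 0.24 (SD, n = 6) and 3.46 ± 1.54 (SD, n = 13), and it was 2.90 ± 0.12 (SD, n = 11) at 8 weeks without +/+ replicate 5 and D/D replicate 6. The E16.5 ratio thus lies above the 8-week mean, at the stage where Cox7a2 was at most 5.37 FPKM. Cox4i2 remained a small part of its pair, at a median of 2.73% at E11.5, 1.82% at E16.5 and 0.806% at 8 weeks. The 3 muscle-type genes summed to a median of 23.8% of the 3 pairs at E11.5, 57.7% at E16.5 and 93.4% at 8 weeks.

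**Figure D2:**
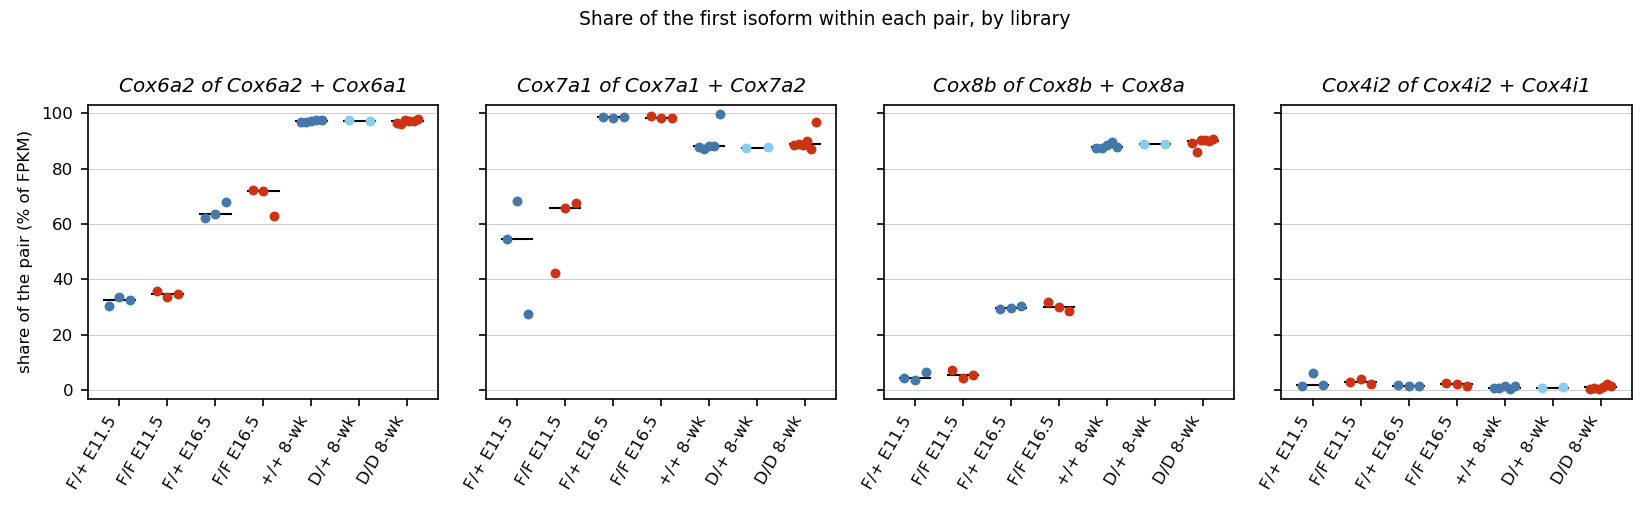
Share of the first isoform of each pair in its pair's summed FPKM (percent), 1 point per bulk library with the group median as a bar. The share of Cox6a2 moves from 33.6% over 65.8% to 97.2%, that of Cox8b from 4.96% over 29.8% to 89.0%, that of Cox7a1 peaks at E16.5, and that of Cox4i2 stays under 6.28%.

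The single-cell libraries show which cells of the E11.5 heart carried these transcripts. After filtering, 2503 cells of the +/+ library and 3368 of the F/F library remained, of 2563 and 3469 barcodes deposited and about 5000 aimed for per library. The libraries had 18 barcode sequences in common. Among 18 clusters, 4 were led by at least 9 of 11 cardiomyocyte markers and held 1562 cells: cluster 8 (520 cells, led by Nppa and Cited1) and cluster 11 (634 cells, led by Myoz2 and Myl2) are called cardiomyocyte-like, while cluster 13 (297 cells, led by Bmp4 and Rspo3, with 4 outflow tract markers) and cluster 15 (111 cells, led by Shox2 and Vsnl1, with 5 atrial markers) are left unnamed because markers of other regions also led them. Levels are unique molecular identifiers (UMIs) summed over cells and scaled to one fixed total (CPM), with exact 95% Poisson intervals that cover counting error only. Cox4i2, Cox6a2, Cox7a1 and Cox8b were among the 2000 variable genes used for clustering, so their differences between clusters are described and not tested.

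The muscle-type isoforms were found almost wholly in the 4 myocyte clusters, while the general isoforms were found everywhere. Cox6a2 reached 918 CPM (905 to 930) in the 4 clusters against 13.4 CPM in all other cells, a ratio of 68.4. Cox7a1 reached 300.1 CPM (293 to 307) against 6.31 CPM, a ratio of 47.5, and Cox8b 20.6 CPM (18.8 to 22.5) against 0.349 CPM, a ratio of 58.9. The general genes were also higher in myocytes but by far less: Cox8a 4.02 times (2872 against 715 CPM), Cox7a2 3.34 times (1868 against 559 CPM), Cox4i1 3.02 times (2561 against 847 CPM) and Cox6a1 2.38 times (1281 against 537 CPM). When the 8 members were kept out of the variable genes, an alternative added after seeing the data, 3 clusters with 1454 cells passed the marker rule, and the ratios fell to 26.1 for Cox6a2 and 25.9 for Cox7a1, because other cells then held 34.7 and 11.6 CPM.

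Free RNA in the droplets can add to low values outside myocytes, but it was not estimated. Thinned to 5000 UMIs per cell, Cox6a2 was detected in 84.5% of myocyte-cluster cells (92.5% unthinned) and in 6.83% of erythroid-like cells (16.7% unthinned), which should lack it. Cox7a1 was detected in 69.3% (88.6% unthinned) against 2.39% (6.01%), and Cox8b in 7.74% (17.7%) against 0.195% (0.501%). The median depths were 14630 and 11352.5 UMIs, and 63 and 145 cells under 5000 UMIs were left out. The levels of Cox6a2 in other classes (10.45 CPM in immune-like to 16.9 CPM in epicardial-like cells) were near that of erythroid-like cells (13.6 CPM). Whether free RNA makes up these levels was not tested. Cox7a1 was 4.46 CPM in erythroid-like cells and somewhat higher elsewhere, with 12.04 CPM (9.50 to 15.1) in epicardial-like and 7.70 CPM (5.596 to 10.3) in endothelial and endocardial-like cells. Outside the myocyte clusters Cox6a2 was 7.73 CPM in the +/+ library and 17.9 CPM in the F/F library, so this low level itself differed between libraries.

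Among the myocyte clusters the 3 muscle-type genes did not follow one order. Cox6a2 was lowest in cluster 8 (451 CPM, 436 to 466), higher in cluster 11 (1067 CPM, 1047 to 1088) and cluster 13 (1184 CPM, 1151 to 1217), and highest in cluster 15 (1776 CPM, 1706 to 1849). Over the other filters and clusterings these values ran from 444.5 to 790.2 CPM, 790.2 to 1319 CPM, 885 to 1313 CPM and 1046 to 1931 CPM in the same order, so the order of clusters 11, 13 and 15 depends on the clustering. The lowest value of cluster 15 comes from clustering with the members kept out of the variable genes, where the best-matching cluster shared 53.1% of cells (the overlap over the union) with it and Cox7a1 was 255.7 CPM. Cox7a1 was 242 CPM in cluster 8, 270.5 CPM in cluster 11, 428 CPM in cluster 13 and 467 CPM in cluster 15. Cox8b instead was highest in cluster 13 (42.1 CPM, 36.1 to 48.9), followed by cluster 8 (23.7 CPM), with 10.1 CPM in cluster 11 and 11.01 CPM in cluster 15, where it ran from 3.04 to 11.96 CPM over the other settings. Cluster 8, led by the trabecular and atrial gene Nppa, thus had the least Cox6a2 and more Cox8b than cluster 11, led by the ventricular genes Myoz2 and Myl2.

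Cluster 13 was uneven within itself. Although its Cox6a2 level was close to that of cluster 11, Cox6a2 was detected in 64.7% of its cells after thinning (95% binomial interval 58.8% to 70.2%), against 95.9% (94.1% to 97.4%) in cluster 11, 88.6% in cluster 15 and 80.9% in cluster 8. Cox4i2 had its highest level of any cluster there, at 134 CPM (123 to 145), and was detected in 35.3% of cells after thinning.

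Cox4i2 was the member with another cell pattern. It reached 80.7 CPM in cluster 15 and 34.7 CPM in cluster 11 but 1.62 CPM in cluster 8, where 13 UMIs were counted in 520 cells. Over the other settings it ran from 16.7 to 87.7 CPM in cluster 15, from 20.2 to 54.4 CPM in cluster 11 and from 1.502 to 20.2 CPM in cluster 8, which resolution 0.5 merged with cluster 11. The 16.7 CPM comes from the clustering without the members. Outside the myocyte clusters it was 44.7 CPM in immune-like cells (49 cells), 36.6 CPM in megakaryocyte-like cells (105 cells), 24.6 CPM in mesenchymal-like cells, 10.5 CPM in endothelial and endocardial-like cells, 7.66 CPM in epicardial-like cells and 1.09 CPM in erythroid-like cells. By library, the immune-like value was 74.3 CPM in +/+ and 25.2 CPM in F/F and the megakaryocyte-like value 28.5 and 49.0 CPM, so these classes have no common order. Every one of these classes lay above the erythroid-like level, and cluster 8 was close to that level. Cluster 16 (125 cells, led by Rgs5, a pericyte gene, and unnamed) had 20.4 CPM.

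**Figure D3:**
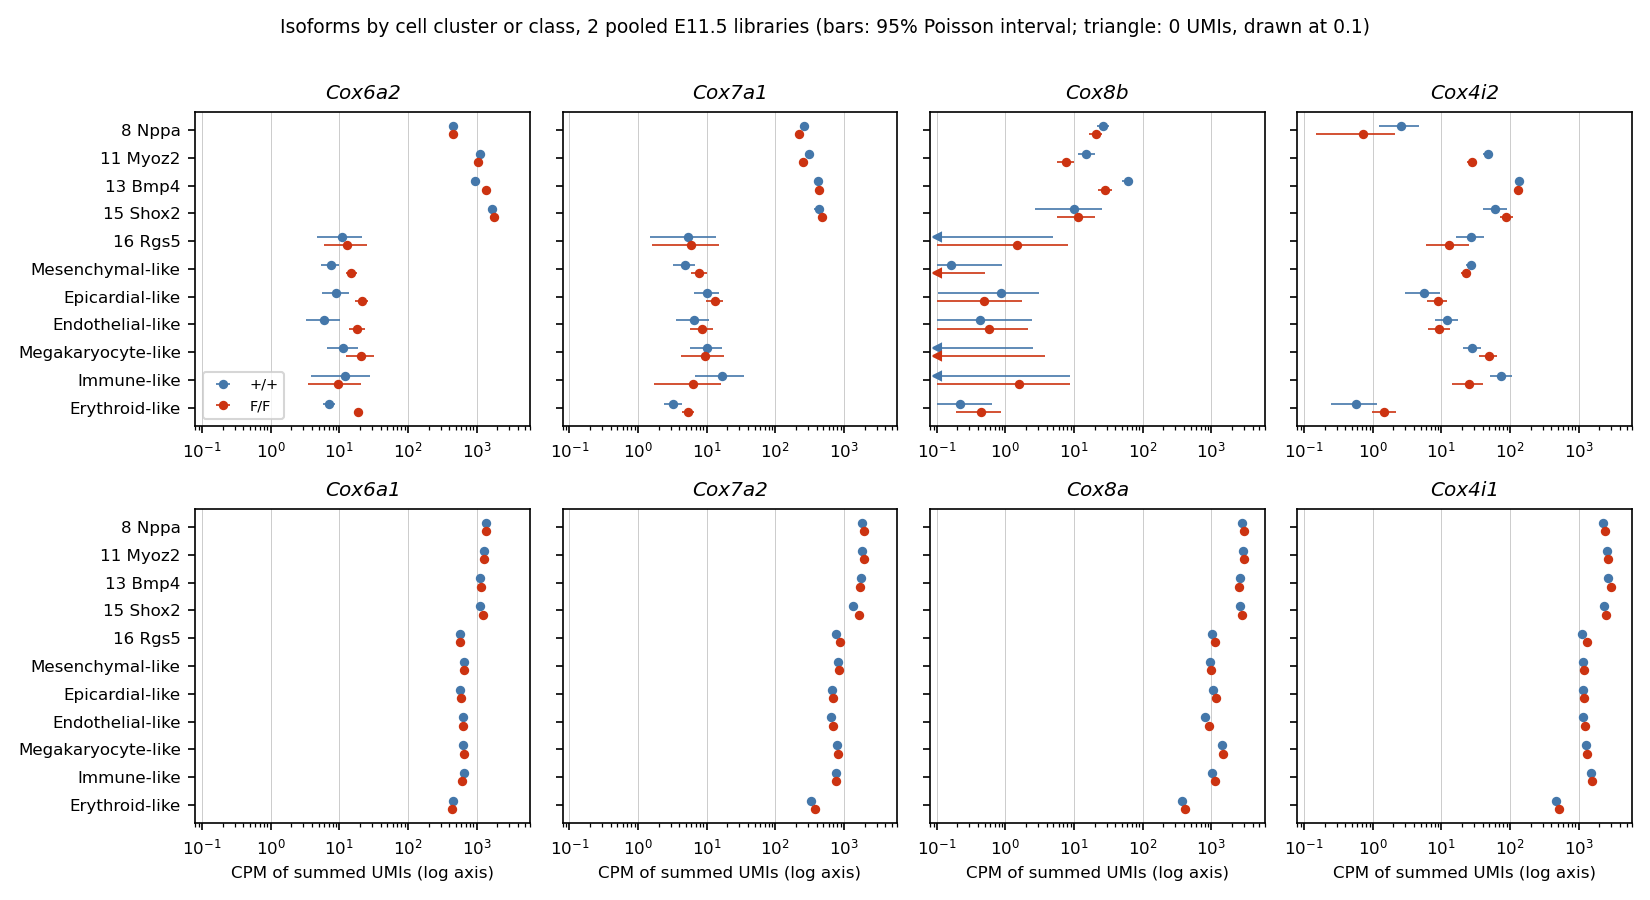
CPM of summed UMIs (log axis) of each isoform in the 4 myocyte clusters, cluster 16 and the named cell classes, for the +/+ library (blue) and the F/F library (red), with 95% Poisson intervals; triangles mark 0 UMIs. The muscle-type genes stand higher in clusters 8, 11, 13 and 15 than in other classes. The gap runs from Cox8b in F/F (7.54 CPM in cluster 11, 1.57 CPM in immune-like cells) to Cox6a2 in +/+ (1662 CPM in cluster 15, 6.06 CPM in endothelial and endocardial-like cells). The general genes spread far less, and Cox4i2 also appears in immune-like, megakaryocyte-like and mesenchymal-like cells.

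Within single myocyte clusters the general form still supplied most UMIs of 2 pairs at E11.5. The share of Cox6a2 in its pair was 24.8% in cluster 8 (24.1% to 25.6%, exact binomial), 45.5% in cluster 11 (44.8% to 46.1%), 50.8% in cluster 13 (49.8% to 51.8%) and 59.8% in cluster 15 (58.3% to 61.3%), against 2.44% in all other cells. The share of Cox7a1 was 11.2%, 12.3%, 19.7% and 23.1% in the same order, against 1.12% elsewhere. Cox8b was 0.807%, 0.339%, 1.61% and 0.396% of its pair, against 0.0488% elsewhere. UMIs count molecules captured at the 3' end, and FPKM counts reads per length, so shares on the 2 scales are set side by side only.

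Set side by side at E11.5, whole-heart FPKM and the CPM of all cells summed differed most for 2 members. Cox7a2 had a median of 75.8 FPKM but 913 CPM, or 0.083 FPKM per CPM, and Cox8b had 54.7 FPKM but 5.80 CPM, or 9.43 FPKM per CPM. The other 6 members lay between 0.466 (Cox4i1) and 1.88 FPKM per CPM (Cox6a2). Cox7b (0.180), Cox6c (0.283) and Ndufa4 (0.364) lay low as well, and Gapdh was at 1.18 FPKM but 2392 CPM. The Cox7a1 share of its pair was accordingly 60.3% in the median E11.5 bulk library and 8.58% over all cells. Which of the assays is nearer the true ratio was not tested.

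The F deletion was compared with the control at each embryonic stage. At E11.5 all 3 muscle-type genes had higher mean levels in F/F than in F/+ hearts, and Cox7a1 by the most, but none passed the adjusted threshold over the 11491 genes tested. Cox7a1 was 58.4, 66.2 and 61.4 FPKM in the F/+ hearts and 98.7, 167 and 136 FPKM in the F/F hearts. The groups did not overlap. The log2 fold change was 1.07 (SE 0.20, 95% interval 0.63 to 1.503), with limma's unadjusted p = 0.0002514 and Benjamini-Hochberg adjusted p = 0.417.

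Cox6a2 was 358, 439 and 479 FPKM in F/+ and 574, 491 and 549 FPKM in F/F hearts, again without overlap, with a log2 fold change of 0.35 (SE 0.16, limma unadjusted p = 0.0493, adjusted p = 0.999). Cox8b was 33.8, 37.2 and 56.4 FPKM in F/+ and 74.1, 56.3 and 53.1 FPKM in F/F hearts, which overlapped, with a log2 fold change of 0.54 (SE 0.22, limma unadjusted p = 0.0348, adjusted p = 0.999). Thus 3 of the 8 members had an unadjusted p under 0.05, against 4.37% of all genes, and 2 had every F/F heart above every F/+ heart, against 4.93% of genes, while no member had every F/F heart below, against 4.31%. By adjusted p no member was called, and 0.0087% of genes, 1 gene (Mir6236), were. Mir6236 was at 0 FPKM in the 3 F/+ hearts and at 10852 to 27597 FPKM in the 3 F/F hearts, but at 17.6 to 48.8 FPKM in F/+ and 0 in F/F ventricles at E16.5, and its part in the other differences was not tested. The general genes had positive log2 fold changes of 0.13 (Cox4i1) to 0.54 (Cox7a2, from 0.04 to 1.22 with 1 library left out) with limma unadjusted p of 0.081 or more, and Cox4i2 had 0.34 with an interval from -0.68 to 1.36.

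The F/F hearts at E11.5 also had a higher sum of cardiomyocyte markers: the 11 markers summed to 12372 to 14886 FPKM in F/+ and 15152 to 17145 FPKM in F/F hearts, without overlap. This was not particular to cardiomyocytes. Endothelial and endocardial markers summed to 300.0 to 337.7 FPKM in F/+ and 363.8 to 382.7 FPKM in F/F hearts, again without overlap. Mesenchymal markers overlapped, at 422.6 to 547.8 FPKM in F/+ and 381.7 to 441.6 FPKM in F/F hearts. Erythroid markers summed to 39049 to 135392 FPKM in F/+ and 60354 to 106059 FPKM in F/F hearts. Divided by the cardiomyocyte marker sum, Cox7a1 was still lower in every F/+ heart (log2 ratio -7.81 to -7.66) than in every F/F heart (-7.44 to -6.51), whereas the groups overlapped for Cox6a2 (-5.13 to -4.69 in F/+ and -4.96 to -4.90 in F/F). The part that cell composition plays in the remaining difference was not tested. Among 13 alternative limma fits, Cox7a1 was called in the fit where all 25 libraries shared an estimate of the spread (limma adjusted p = 0.026), and its limma adjusted p lay between 0.295 and 0.964 in the others.

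At E16.5 no member passed the adjusted threshold. The log2 fold changes ran from -0.22 (Cox4i1, 95% interval -0.60 to 0.15) to 0.14 (Cox6a2, -0.27 to 0.54), and that of Cox7a1 was -0.09 (-0.56 to 0.37). By limma's adjusted p no member and 0.00935% of the 10699 genes tested were called. Cox6a1 was 1397, 1327 and 1374 FPKM in F/+ and 1186, 1225 and 1263 FPKM in F/F ventricles, and Cox8a was 1092, 1107 and 1044 FPKM against 1024, 1041 and 1018 FPKM. These were the 2 members of which every F/F value was below every F/+ value, against 2.88% of all genes, and 3.9% of genes had every F/F value above. Their log2 fold changes were -0.16 (SE 0.08) and -0.07 (SE 0.08).

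The change of the F effect from E11.5 to E16.5 was tested as an interaction. For Cox7a1 it was -1.16 (SE 0.30, 95% interval -1.81 to -0.52, limma unadjusted p = 0.00184, adjusted p = 0.843), which did not pass the adjusted threshold. Cox6a1, Cox8a and Cox8b had interactions of -0.35, -0.39 and -0.59 with unadjusted p of 0.0343, 0.0492 and 0.0327. So 4 of the 8 had an unadjusted p under 0.05, against 4.32% of the 11423 genes, and none had an adjusted p under 0.05, against 0.00875%.

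At 8 weeks no member passed the adjusted threshold between D/D and control cardiomyocytes. Limma called 0 of 10249 genes (0.0%) at an adjusted p under 0.05, and 175 genes (1.71%) had an unadjusted p under 0.05. Among the members Cox8b was the only one of these, at 3721 to 4411 FPKM in the 7 controls (median 4075) and 4152 to 5017 FPKM in the 6 D/D libraries (median 4601), which overlapped, with a log2 fold change of 0.18 (SE 0.08, limma unadjusted p = 0.0462, adjusted p = 0.9999). The 95% intervals of the log2 fold changes were -0.43 to 0.53 for Cox6a2, -0.25 to 0.31 for Cox7a1 and 0.00 to 0.35 for Cox8b, so a change of 1 log2 unit lies outside them. The interval of Cox7a2, -1.12 to 1.83, is wide, and its fold change of 0.36 became -0.31 without +/+ replicate 5. Without that library and D/D replicate 6, an alternative added after seeing the data, the log2 fold changes were 0.04 for Cox7a2, 0.13 for Cox6a2, 0.16 for Cox7a1 and 0.16 for Cox8b, and limma again called 0 genes. The share of the muscle-type isoform in its pair at 8 weeks had medians in controls and D/D of 97.2% and 97.3% for Cox6a2, 87.8% and 88.8% for Cox7a1 and 88.7% and 90.1% for Cox8b, with overlapping ranges.

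**Figure D4:**
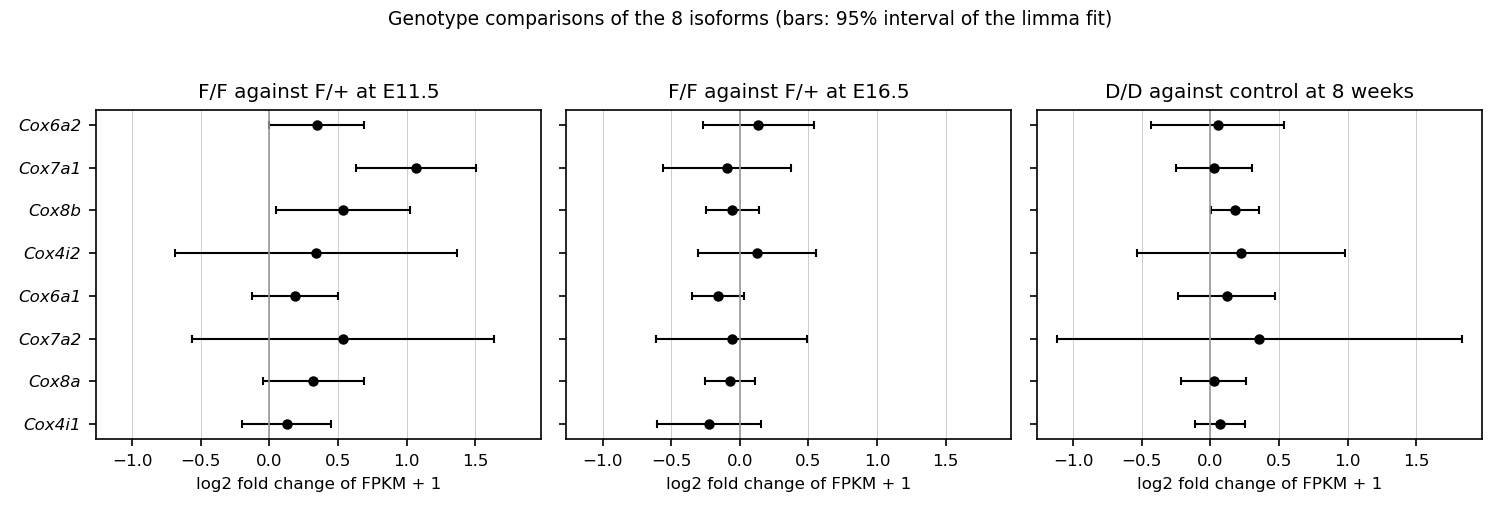
Log2 fold change of FPKM + 1 (points) with its 95% interval from the limma fit (bars) for each isoform: F/F against F/+ at E11.5, F/F against F/+ at E16.5, and D/D against +/+ and D/+ at 8 weeks. Cox7a1 at E11.5 lies farthest from 0, at 1.07, and most other intervals hold 0.

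In the E11.5 cells, where 1 library per genotype allows no test, the myocyte clusters gave lower Cox7a1 and Cox8b sums in F/F, where the bulk hearts had higher means. Cox7a1 was 266 CPM in the +/+ library and 218 CPM in the F/F library in cluster 8 (log2 ratio -0.29, counting interval -0.42 to -0.16). In cluster 11 it was 305 and 253 CPM (-0.27, -0.39 to -0.16). In cluster 13 (0.02) and cluster 15 (0.15) the counting intervals held 0. Over genes with at least 100 UMIs, the middle 90% of log2 ratios ran from -0.36 to 0.24 in cluster 8 and from -0.44 to 0.26 in cluster 11, so the Cox7a1 ratios lay inside the spread of genes.

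Cox8b was 28.4 CPM in the +/+ and 15.3 CPM in the F/F myocyte clusters (log2 ratio -0.89, counting interval -1.16 to -0.62). It was lower in F/F in cluster 11 (-1.01) and cluster 13 (-1.08), and in cluster 8 by less (-0.38, with a counting interval from -0.81 to 0.05). In cluster 15 it was 0.22 higher, on 4 and 11 UMIs (-1.53 to 2.33). The values of clusters 11, 13 and 8 rest on 50 and 49, 106 and 69, and 105 and 85 UMIs in +/+ and F/F. Each F/F count was below 100 UMIs, the minimum of the gene spread, whose 5th percentiles were -0.44, -0.44 and -0.36. These Cox8b ratios are thus set beside that spread only. Cox6a2 was 1355 CPM in F/F and 948 CPM in +/+ in cluster 13 (log2 ratio 0.52, counting interval 0.43 to 0.60), above the 95th percentile of genes there (0.29), but not in cluster 11 (-0.14) or cluster 8 (0.01). Cox4i2 was lower in F/F in cluster 11 (48.4 against 27.9 CPM, log2 ratio -0.80) and alike in cluster 13 (138 against 131 CPM). Cluster 8 was the largest of the 4 in the +/+ library (237 of 604 cells) and cluster 11 in the F/F library (427 of 958 cells), which moves any sum over the clusters. The single-cell control is +/+ and the bulk control F/+, so the comparisons differ in their control as well as in the assay.

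The other genes of the enzyme and its control were read from lists chosen with earlier results of these data known. Of 11 other nuclear subunits, 9 passed the filter on low values. From E11.5 to 8 weeks, 5 of them were higher without overlap (Cox5a, Cox5b, Cox6b1, Cox6c and Cox7c) and Cox6b2, the testis form of subunit 6B, was lower, with a median log2 difference of 1.40, against -0.53 over all genes. In the myocyte clusters of the E11.5 cells these genes were higher too, for example Cox5a at 1661 against 332 CPM in other cells and Cox6b1 at 2017 against 692 CPM, while Cox6b2 was lower, at 28.3 against 85.1 CPM. The mitochondrially encoded core subunits, which only the single-cell table lists, were 6516 against 2521 CPM for mt-Co1, 7157 against 2207 CPM for mt-Co2 and 11210 against 4524 CPM for mt-Co3. In the main clustering Cox6a2, Cox7a1 and Cox8b thus differed between myocytes and other cells by 47.5 times or more, and the other subunits by less, as the values above show. With the members kept out of the variable genes, the ratios of these genes were 26.1, 25.9 and 47.4 in the same order.

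Of 22 assembly factors, which insert copper and heme and build the complex, 5 were higher (Cox10, Cox14, Cox17, Taco1 and Cmc1) and 1 lower (Cox16) at 8 weeks than at E11.5, counted here and below by ranges that do not overlap. Over all genes 12.8% were higher and 36.4% lower by that count. Of 10 regulators of mitochondrial genes, Ppargc1a, Ppargc1b, Esrra and Mef2d were higher and Nrf1 lower. Of 9 hypoxia response genes, Vegfa, Egln3, Ndufa4l2 and Lonp1 were higher and Slc2a1 lower. Of 10 genes of other metabolic and contractile isoform pairs, 9 passed the filter: Slc25a4, Ckm, Ckmt2, Tnni3 and Eno3 were higher at 8 weeks than at E11.5 without overlap, and Slc25a5, Ckb and Tnni1 (the fetal and slow muscle troponin I) lower. Ckm had medians of 2410 FPKM at E16.5 and 2351 FPKM at 8 weeks, so its course was not that of the oxidase genes.

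By genotype, limma called no gene of these lists in any comparison. At E11.5, 8 of 9 tested subunits had a positive log2 fold change in F/F, with a median of 0.28 against 0.02 over all genes, and the members at an unadjusted p under 0.05 were Cox6c (0.41, SE 0.15) and Cox7a2l (0.39, SE 0.15). Of 10 regulators, 9 had a positive log2 fold change (median 0.19), and of 22 assembly factors 13 had one (median 0.17). The share of all genes with a positive log2 fold change is not given here, so these counts are not set against it. At E16.5 Cox6c was again higher in F/F (log2 fold change 0.52, SE 0.14, limma unadjusted p = 0.00524, adjusted p = 0.9999). At 8 weeks Ppargc1a, a coactivator that drives mitochondrial biogenesis, had a log2 fold change of -0.67 in D/D (SE 0.24, limma unadjusted p = 0.0145, adjusted p = 0.9999). Its levels moved with the first principal component: the lowest were 9.54, 7.26 and 9.58 FPKM in D/D replicates 4, 5 and 6 and, among controls, 11.8 FPKM in +/+ replicate 5, against 13.6 to 20.9 FPKM in the other D/D and 15.8 to 31.8 FPKM in the other control libraries. The part of that component in the difference was not tested.

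The genes most like each member across the 25 bulk libraries were found by Pearson's r of log2(FPKM + 1), a description over libraries that share stage and tissue. For Cox6a2 they were Adamtsl5, Uqcrc1, Macrod1, Pdk2 and D10Jhu81e (r = 0.987 to 0.990), for Cox7a1 they included Slc25a4, Fabp3, Acadvl and Ndufs7 (0.986 to 0.991), and for Cox8b Perm1, Mb, Ndrg2, Mdh2 and Adck3 (0.992 to 0.995). Cox4i2 had no such close match, the nearest being Gata2 (0.794) and Tnfrsf1a (0.781). Across 16 cell clusters, Cox6a2 and Cox7a1 were among each other's nearest genes (r = 0.993), next to Tnni3 (0.994 with each), cardiac troponin I. Cox8b lay nearest Cav3 and Lsmem1 (0.978 each), and Cox4i2 nearest Ankrd37 and Tbcel (0.913 each).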

How the data were processed

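Bulk poly(A) RNA-seq covered 25 libraries of heart tissue and 10x 3' single-cell RNA-seq covered 2 libraries. The authors deposited bulk values per gene that are taken as FPKM, a unit inferred from the values, and per the submitters' processing notes CASAVA, TopHat2 2.0.11 or TopHat and the build mm9 were used. They deposited single-cell UMI counts per gene and barcode, made with Cell Ranger on the build mm10, per the submitters' processing notes. The gene counter and annotation are not given in the sources used here. FPKM keeps no read depth, so the depth of the bulk libraries is unknown, and the single-cell libraries hold 38302758 and 51432290 UMIs, with medians of 13369 and 13403 per barcode.

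The 8 genes, the gene lists and the tests were chosen with earlier results of these data known, and the rule for naming cell clusters was set after the data were seen. Genotypes were compared with limma 3.58.1 (R 4.3.3, intensity trend) on log2(FPKM + 1) over all genes whose mean in the compared libraries reached 1 FPKM, with Benjamini-Hochberg adjustment and a threshold of 0.05. Every fold change is on that scale, which understates changes of low genes. The labels do not call replicates separate animals, so p-values measure the spread between these libraries. The script was checked on simulated data. Of the other listed genes, those past the threshold and at most 2 per list and comparison with the largest fold changes were to be named, and others are named after their values were seen.

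Barcodes with at least 500 genes were kept. Scrublet's automatic threshold marked 2 and 20 barcodes, so the 52 and 96 with the highest scores were removed. Cells were clustered with scanpy 1.11.5 (2000 variable genes, 30 components, 15 neighbours) and leidenalg 0.10.2 at resolution 1. A cluster counted as myocyte when at least 9 of 11 cardiomyocyte markers were over 1 log2 unit higher there than elsewhere. UMIs were summed per cluster and library, with exact 95% intervals from scipy 1.17.1 that cover counting error only. Near copies were sought with blastn 2.17.0. The list of genes most like Cox7a1 is given in part, and the rest of it is not reported here. Alternatives covered the pseudocount, filter, scaling, covariates, replicate block, each library left out, and the single-cell filters and clustering.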

Additional observations from a re-analysis of the deposited data

Results flagged for a closer look

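Dixon's 95% criterion was applied to 24 sets of values, each a gene or pair ratio within +/+ (5 libraries) or D/D (6) at 8 weeks. In these sets, 6 values stood farther from the rest than it allows. Groups of 3 or 2 libraries, which include all embryonic ones, were not screened. Chance gives about 1 flag in 20 independent sets, but these sets share libraries and genes, so that rate does not apply directly. All 6 belong to the 2 libraries that stood apart on the first principal component of the 8-week cardiomyocytes. In +/+ replicate 5, Cox6a1 was 402.1 FPKM (217.1 to 253.5 FPKM in the other 4), Cox7a1 was 4603.3 FPKM (2633.3 to 3080.0 FPKM) and Cox7a2 was 14.34 FPKM (354.7 to 422.2 FPKM). The log2 ratio of Cox7a1 to Cox7a2 in that library was 8.23, against 2.772 to 2.915 in the others. In D/D replicate 6, Cox7a2 was 91.1 FPKM (350.8 to 436.3 FPKM in the other 5) and the log2 ratio of Cox7a1 to Cox7a2 was 4.903, against 2.739 to 3.176.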

How the results depend on the processing

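Of 200 member fold changes under settings other than leaving out 1 library, 194 kept their direction and side of the threshold, and so did 275 of 296 with 1 library left out. With the replicate block the 8-week log2 fold changes of Cox4i2 and Cox6a2 became -0.021 and -0.144. With summed Y-linked genes as a covariate those of Cox7a1 and Cox8a became -0.019 and -0.031, and that of Cox7a1 at E16.5 became 0.008. Cox7a1 at E11.5 passed the threshold with all 25 libraries in 1 limma fit (log2 fold change 1.068). Same-numbered replicates correlated at -0.435 to 0.082 in embryos and at 0.528, 0.418, -0.043, -0.104 and 0.213 for numbers 1 to 5 at 8 weeks. Not every pair deviated together, so the numbers were not taken as pairs, and whether some 8-week numbers share a batch was not tested. Genes called at E11.5 were 24 with all 25 libraries in 1 fit, 2 with the replicate block, 2 with the Y-linked covariate and 1 to 2 with 1 library left out, against 1. At E16.5 they were 2 with a pseudocount of 0.1, 3 with the Y-linked covariate and 0 to 2 with 1 library left out. The interaction gave 2 with a pseudocount of 0.1 and 1 to 9 with 1 library left out, the 9 without F/+ replicate 3 of E11.5. At 8 weeks it was 0 throughout. The log2 ratio of Cox7a1 to Cox7a2 at E16.5 was 6.004 with a pseudocount of 0.1.

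Leaving out 1 library turned small fold changes: at 8 weeks they ran from -0.026 to 0.213 for Cox6a2, -0.013 to 0.134 for Cox7a1, -0.308 to 0.709 for Cox7a2 and -0.044 to 0.067 for Cox8a. At E11.5 Cox4i2 ran from -0.093 to 0.954. At E16.5 Cox4i2 ran from -0.011 to 0.309, Cox7a1 from -0.26 to 0.085, Cox7a2 from -0.263 to 0.119 and Cox8b from -0.107 to 0.002. The Cox4i2 interaction ran from -0.828 to 0.22, with 0.037 without F/F replicate 2 of E11.5.

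CPM in the myocyte clusters moved beyond counting error. With doublets kept it was 2521 for Cox4i1, 1262 for Cox6a1, 892.8 for Cox6a2, 292.2 for Cox7a1, 1841 for Cox7a2 and 2822 for Cox8a. At Leiden resolution 0.5 it was 2483, 1240, 865.7, 283.2, 1808 and 2770 in the same order. Without haemoglobin and mitochondrial genes it was 2780, 1390, 996, 325.7, 2028 and 3117, and 47.44 for Cox4i2. With 1000 genes per barcode Cox6a2 was 931.4, and with the members kept out of the variable genes Cox7a2 was 1892 and Cox8a 2895. Single clusters moved more: Cox6a2 ran from 444.5 to 790.2 CPM in cluster 8 and from 790.2 to 1319 CPM in cluster 11, which resolution 0.5 merged. The causes were not tested. FPKM holds no depth, and Cox8b rests on 479 UMIs in myocyte clusters.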
